A study of Mus musculus with 12 samples.

Results

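The 36 genes described here encode the machinery that copies DNA in S phase, and they were read in mouse endometrium, the lining of the uterus, on 12 Affymetrix Mouse Gene 1.0 ST arrays. They were chosen by symbol. Each gene was represented by the row of the value table that carried its symbol alone, and where 2 such rows existed, as for Pcna and Tk1, by the row with the higher mean over the arrays. All 36 listed genes had such a row, out of 21789 rows with 1 symbol and 35556 rows in all. No gene was left out for low values.

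The females were CBAF1, the F1 offspring of CBA and C57Bl/6 mice, aged 9 to 16 weeks. One group was mated with intact BALB/c males, which deliver sperm and seminal plasma, and was sampled 8 h later. A second group was mated with vasectomized BALB/c males, whose ejaculate lacks sperm along with the fluids of testis and epididymis, and was also sampled 8 h later. The males were 12 to 28 weeks old and vasectomy had been done at 6 to 8 weeks of age. The unmated controls were virgin females labelled as being in estrus, while the series text places their collection in the evening of pro-estrus. Mating and the hours that passed since that evening therefore differ together between the mated groups and the controls and cannot be told apart. Each group held 16 females, and each of its 4 arrays read RNA pooled from 4 of them, so that the spread between arrays is a spread between pools.

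DNA is copied once per cell cycle. In G1 the origin recognition complex, with Cdc6 and Cdt1, loads the MCM helicase onto origins. At the start of S phase Cdc45 and the GINS complex turn that helicase on, and primase and the DNA polymerases follow it, held to the template by the Pcna clamp. Many of these genes are transcribed by E2F factors after cyclin E activity has released them from the retinoblastoma protein, which is why they serve as readouts of S phase entry. In the rodent uterus the epithelium divides under estrogen around pro-estrus and estrus and stops dividing when progesterone acts, so the genes are also a readout of the estrous cycle.

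E2F-type sites were looked up in the promoters, since shared letters there are one feature of these genes that the choice by symbol did not use. RefSeq promoters of build GRCm38.p6, which run from 250 bases before the start site to 50 bases after it, were at hand for 30 of the 36 genes. The letters TTTGGCGC, TTTCGCGC, TTTCCCGC or TTTGCCGC, read on either strand, occurred in 13 of these 30 promoters and in 2.6% of the promoters of all 27025 genes in the table. The 13 genes were Cdc6, Cdt1, Gins3, Lig1, Mcm3, Mcm5, Mcm6, Mcm7, Orc1, Pola1, Pold1, Rfc3 and Uhrf1. TTTGCCGC was found in 0 of the 30. Read the same way, the CCAAT box (CCAAT) was in 18 of 30, against 41.1% of all genes. TTTGAA, the core of the cell cycle homology region that many mitotic genes carry, was in 4 of 30, against 20.2% of all genes and 13 of 18 genes of the mitosis list described further on. A match of letters is a description and shows no binding.

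Stretches that lie before the start site are printed for 6 of the 13 genes, from the helicase, origin loading and primer synthesis, to show how the letters sit in them. They run 5′ to 3′ on the strand of the gene, and the capitals mark the E2F-type letters. In Mcm5 and Mcm6 the capitals span 2 overlapping matches, 1 on each strand.
Mcm6 (chr1:128359774-128359845, minus strand, capitals ending 99 bases before the start site): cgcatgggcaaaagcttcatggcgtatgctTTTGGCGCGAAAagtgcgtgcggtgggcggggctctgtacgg
Mcm5 (chr8:75109326-75109397, plus strand, 142 bases before): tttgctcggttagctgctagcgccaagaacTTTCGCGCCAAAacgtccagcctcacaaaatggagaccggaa
Mcm7 (chr5:138172011-138172078, minus strand, 158 bases before): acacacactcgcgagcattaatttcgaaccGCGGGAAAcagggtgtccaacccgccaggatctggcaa
Orc1 (chr4:108579397-108579453, plus strand, 20 bases before): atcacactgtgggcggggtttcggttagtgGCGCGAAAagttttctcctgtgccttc
Cdc6 (chr11:98907983-98908050, plus strand, 131 bases before): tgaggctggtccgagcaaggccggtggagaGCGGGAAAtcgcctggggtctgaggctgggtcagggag
Pola1 (chrX:93632256-93632323, minus strand, 131 bases before): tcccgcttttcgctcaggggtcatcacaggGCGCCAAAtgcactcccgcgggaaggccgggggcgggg

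Values are log2 levels as deposited, so a difference of 1 is a doubling, and levels of different genes are not compared. The array medians lay between 7.25 and 7.32, arrays of 1 group correlated at 0.983 or above over all rows, and no array was a copy of another. A row was called where the fold-change was at least 1.5 and the limma p-value, adjusted over all 35556 rows, was at most 0.05.

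All 36 replication genes had a lower mean in each mated group than in unmated controls, but few of them passed the test, and the control arrays lay far apart. The median log2 fold-change of the 36 was -0.47 in intact-mated females and -0.58 in vasectomized-mated females, while the medians over all rows were 0.006 and 0.0097. In intact-mated females 5 of 36 genes were called lower (Rrm1, Ccne2, Rfc4, Mcm6 and Mcm4) and 0 higher, where 1.55% of all rows were called lower and 1.95% higher. In vasectomized-mated females 4 of 36 were called lower (Rrm1, Ccne2, Mcm3 and Mcm2) and 0 higher, where 0.439% of all rows were called lower and 0.987% higher. Both comparisons use the same 4 control arrays. Between the mated groups 0 of 36 were called in either direction where 0.402% of all rows were called lower and 0.394% higher. There 0 of 36 had an unadjusted limma p of at most 0.05, against 17.2% of all rows. In RNA from whole endometrium, fewer cells in S phase and less of these RNAs in each cell cannot be told apart.

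**Figure D1:**
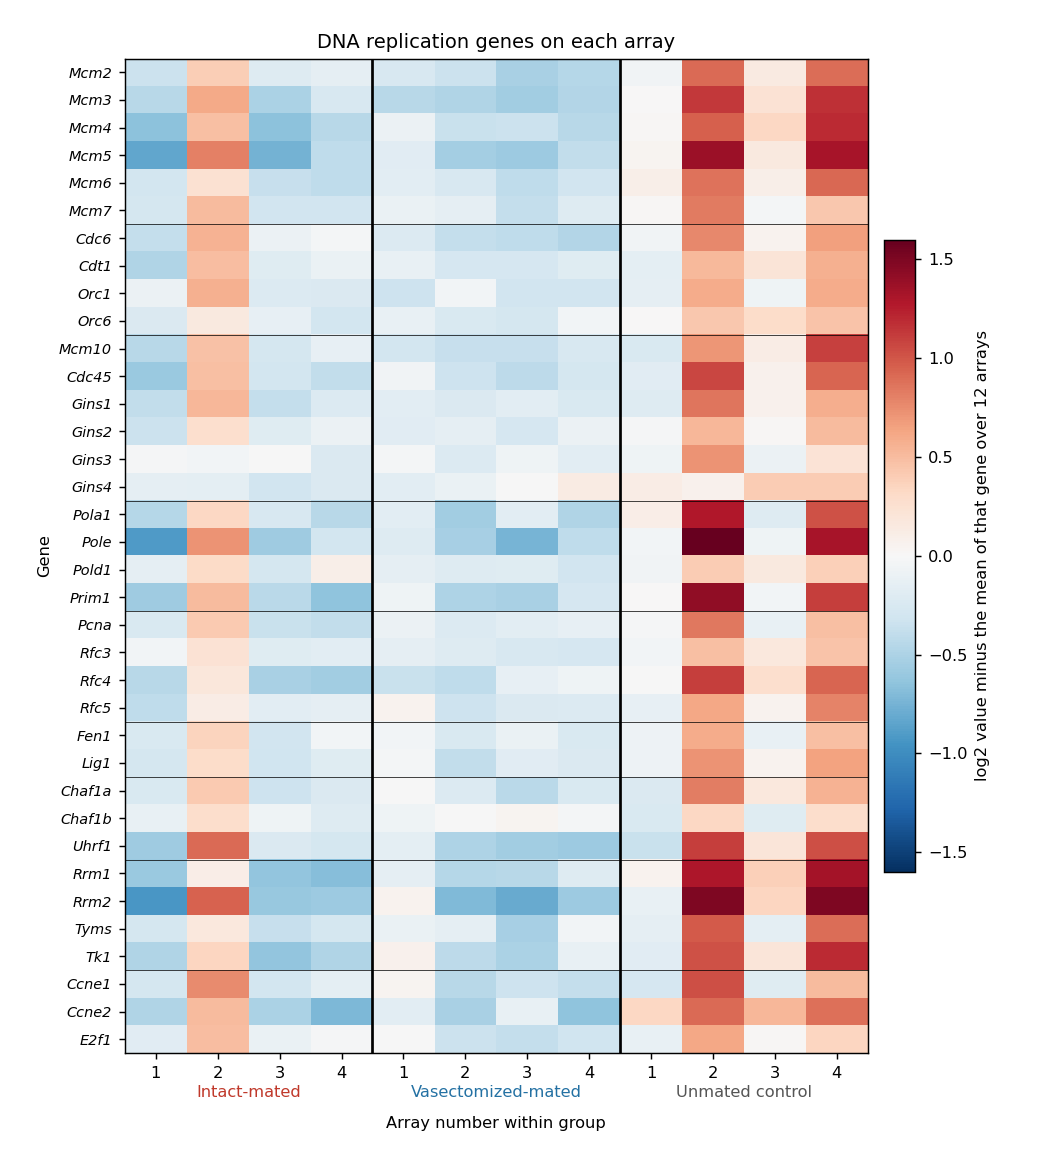
Level of each replication gene on each array, as its log2 value minus the mean of that gene over the 12 arrays (colour scale), with genes in rows ordered by role and arrays in columns by group. Control arrays 2 and 4 and intact-mated array 2 carry the high values, and the vasectomized-mated arrays differ little among themselves.

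The arrays showed 1 shared order in nearly every gene. The mean deviation over the 36 genes, each set against its own mean over the 12 arrays, was -0.39, 0.41, -0.34 and -0.29 on intact-mated arrays 1 to 4, then -0.13, -0.33, -0.34 and -0.28 on vasectomized-mated arrays 1 to 4. On control arrays 1 to 4 it was -0.07, 0.86, 0.09 and 0.78. Control arrays 2 and 4 thus stood above the rest, intact-mated array 2 came next, and control arrays 1 and 3 lay close to the mated arrays. Control arrays 2 and 4 were the highest pair of the 12 in 31 of 36 genes, an order found in 4.12% of all rows. Intact-mated array 2 was the highest intact-mated array in 34 of 36 genes, against 20.4% of all rows, and lay above both control arrays 1 and 3 in 31 of 36, against 32.2% of all rows. The other intact-mated arrays, 1, 3 and 4, lay below every control in 23 of 36 genes, against 7.83% of all rows.

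The spread within groups differed in the same way. The median SD of the 36 genes was 0.38 in intact-mated, 0.14 in vasectomized-mated and 0.46 in control arrays (n = 4 each), whereas over all rows it was 0.11, 0.11 and 0.15. Controls had the largest SD of the 3 groups in 31 of 36 genes, against 52.3% of all rows, and vasectomized-mated arrays had the smallest in 35 of 36, against 40.1% of all rows. The widest control range belonged to Pole and spanned 1.80 log2 units, 3.48-fold, among females of 1 label. In 34 of 36 genes the range among the 4 controls was larger than the difference between the means, and this held in each comparison with a mated group. The share over all rows was not computed for this measure, so the count does not set these genes apart. The vasectomized-mated arrays kept together, and 17 of 36 genes had all 4 of them below all 4 controls, where 3.62% of all rows did. Only Gins4 did so in intact-mated females, 1 of 36, where 6.18% of all rows did.

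**Figure D2:**
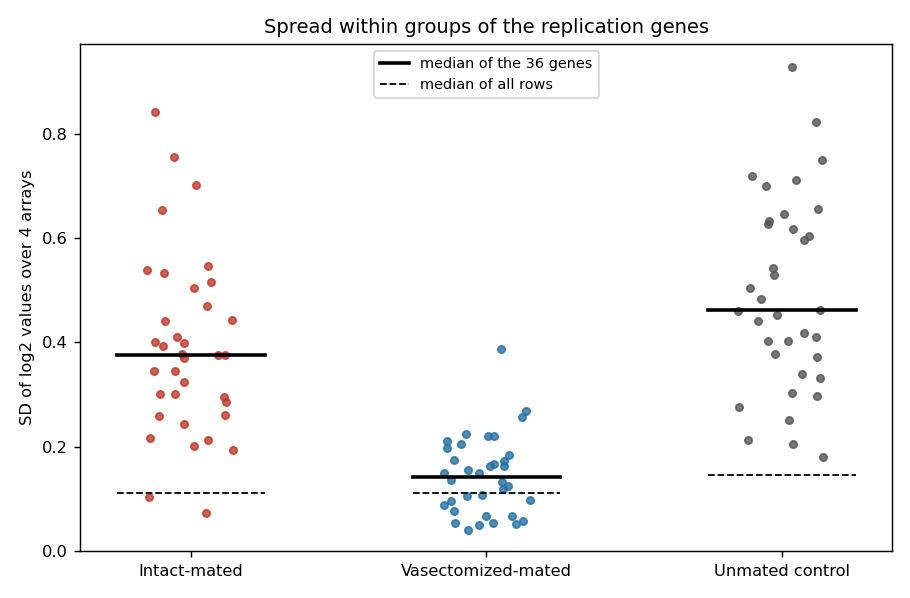
SD of the log2 values over the 4 arrays of each group, 1 point per replication gene, with the median of the 36 genes as a solid line and the median of all rows as a dashed line. The genes spread widely in intact-mated and control arrays, with medians of 0.38 and 0.46, and stay near the level of all rows in vasectomized-mated arrays, with a median of 0.14.

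The MCM helicase, the ring of Mcm2 to Mcm7 that unwinds the double strand, held 4 of the 7 genes called in either comparison. Mcm6 read 8.68, 9.21, 8.60 and 8.57 on intact-mated arrays 1 to 4, 8.80, 8.71, 8.57 and 8.66 on vasectomized-mated arrays, and 9.07, 9.84, 9.06 and 9.89 on controls. Intact-mated array 2 reached into the control range and every vasectomized-mated array lay below it. Mcm6 was 1.63-fold lower in intact-mated females (log2 fold-change -0.70 ± 0.20 SE, limma adjusted p = 0.0456) and stood at -0.78 ± 0.20 (adjusted p = 0.0516) in vasectomized-mated females, just short of a call. Mcm4 read 7.71, 8.84, 7.71 and 7.93 on intact-mated arrays, 8.27, 8.01, 8.03 and 7.92 on vasectomized-mated arrays, and 8.39, 9.32, 8.70 and 9.56 on controls. Its difference was close to equal in both comparisons, at -0.94 ± 0.28 each, yet only that of intact-mated females passed (limma adjusted p = 0.0492 and 0.0852).

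Mcm3 and Mcm2 were called in the other comparison. Mcm3 read 7.33, 8.38, 7.26 and 7.51 on intact-mated arrays, 7.33, 7.29, 7.21 and 7.3 on vasectomized-mated arrays, and 7.78, 8.91, 8.00 and 8.94 on controls. The vasectomized-mated arrays had an SD of 0.05, the narrowest of the genes called here, and all lay below the lowest control. The log2 fold-change of Mcm3 was -0.79 ± 0.28 (limma adjusted p = 0.106) in intact-mated females and -1.12 ± 0.28 (adjusted p = 0.0456), or 2.18-fold lower, in vasectomized-mated females. Mcm2 read 8.5, 9.24, 8.65 and 8.70 on intact-mated arrays, 8.60, 8.51, 8.33 and 8.40 on vasectomized-mated arrays, and 8.79, 9.76, 8.99 and 9.75 on controls. It was 1.82-fold lower in vasectomized-mated females (adjusted p = 0.0468), with a log2 fold-change of -0.55 ± 0.22 (adjusted p = 0.148) in intact-mated females. Mcm5 had the widest spread of the ring (SD 0.75 in intact-mated, 0.18 in vasectomized-mated and 0.72 in control arrays), and its log2 fold-changes of -1.02 and -1.15 were not called. Mcm7 stood at -0.41 and -0.52. All 6 MCM genes had vasectomized-mated arrays below every control, where 3.62% of all rows did, although only 2 of them were called there.

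**Figure D3:**
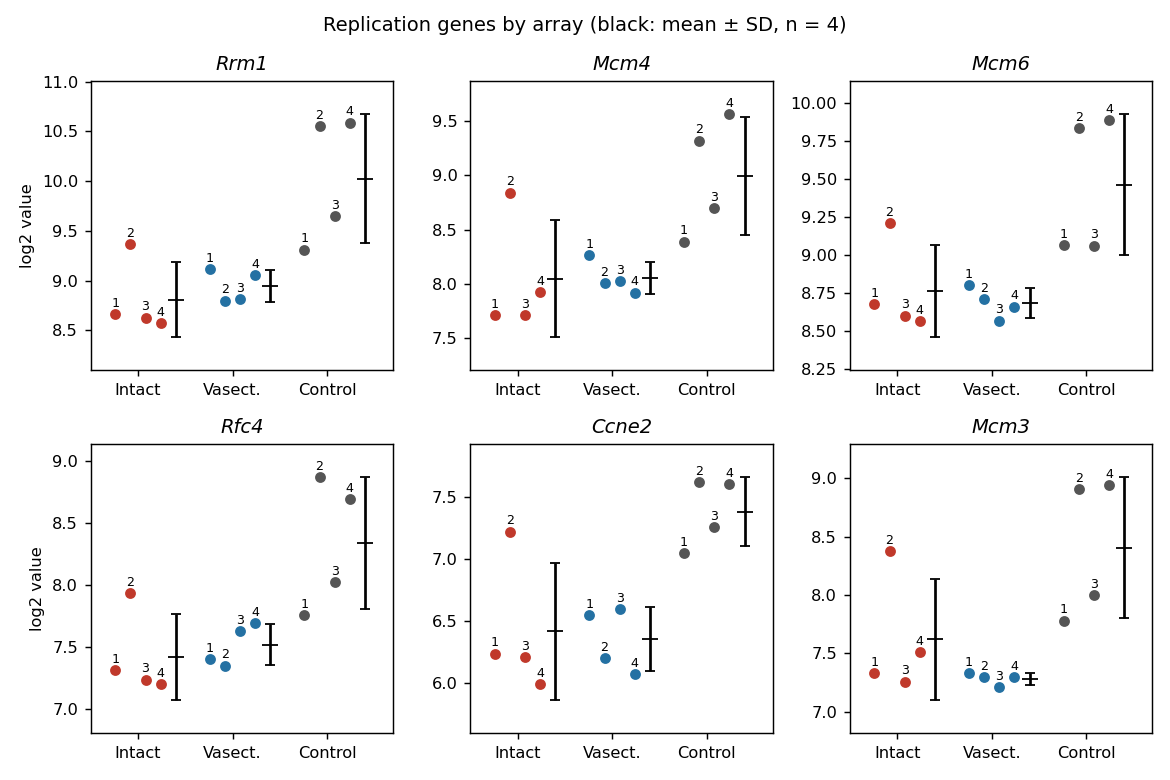
Log2 values on each array for 6 of the genes called in at least 1 comparison, with array numbers beside the points and the mean ± SD of each group (n = 4) in black. In each gene control arrays 2 and 4 are the highest pair, and intact-mated array 2 lies above the other 3 intact-mated arrays.

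The genes that mark and load origins differed less. Orc6, a subunit of the origin recognition complex, averaged 8.23 ± 0.20 in intact-mated, 8.18 ± 0.11 in vasectomized-mated and 8.65 ± 0.20 in control arrays (SD, n = 4 each). It passed the adjusted p in both comparisons (limma, 0.0381 and 0.0452) but not the fold threshold, at 1.34-fold and 1.38-fold lower. Orc1, the largest subunit, had log2 fold-changes of -0.24 and -0.49, and Cdt1, the MCM loading factor, -0.36 and -0.50. Cdc6, its partner in loading, read 6.75, 7.69, 7.04 and 7.10 on intact-mated arrays, 6.91, 6.75, 6.72 and 6.67 on vasectomized-mated arrays, and 7.07, 7.90, 7.18 and 7.79 on controls. The vasectomized-mated arrays lay below all controls, whereas the intact-mated arrays overlapped them. None of the 4 loading genes was called.

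Among the factors that switch the helicase on, Gins4 had an order of arrays of its own. Gins4, a subunit of the GINS complex, read 9.44, 9.43, 9.28 and 9.36 on intact-mated arrays, 9.41, 9.48, 9.58 and 9.71 on vasectomized-mated arrays, and 9.70, 9.66, 9.99 and 9.99 on controls. Here intact-mated array 2 did not stand apart, control array 2 was the lowest control, and all intact-mated arrays lay below all controls. Its log2 fold-change of -0.46 ± 0.09 in intact-mated females had the smallest adjusted p of the 36 genes (limma, 0.00845), but at 1.37-fold it stayed under the fold threshold. In vasectomized-mated females it was -0.29 (adjusted p = 0.117). The other GINS subunits had log2 fold-changes of -0.44 and -0.53 for Gins1, -0.35 and -0.43 for Gins2, and -0.26 and -0.31 for Gins3, and none was called. Cdc45, which completes the active helicase, stood at -0.67 and -0.74, and Mcm10, needed for its activation, at -0.51 and -0.74.

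The polymerase genes combined large differences with wide errors. Pole, the catalytic subunit of the leading strand polymerase, read 5.71, 7.33, 6.04 and 6.32 on intact-mated arrays, 6.41, 6.09, 5.88 and 6.21 on vasectomized-mated arrays, and 6.57, 8.35, 6.55 and 7.93 on controls. Control arrays 2 and 4 were over 1 log2 unit above control arrays 1 and 3, and the means of the mated groups lay 2.00-fold and 2.30-fold below that of controls without a call (limma adjusted p = 0.17 and 0.139). Prim1, the catalytic primase subunit, had log2 fold-changes of -0.91 and -0.96, and Pola1, which extends the primer, -0.76 and -0.90. Pold1, the catalytic subunit of the lagging strand polymerase, differed least of the 4, at -0.23 and -0.43.

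Rfc4, a subunit of the loader that opens the Pcna clamp, was the only clamp gene called. It read 7.32, 7.94, 7.24 and 7.20 on intact-mated arrays, 7.41, 7.35, 7.63 and 7.70 on vasectomized-mated arrays, and 7.76, 8.87, 8.03 and 8.70 on controls. All but intact-mated array 2 of the 8 mated arrays lay below the lowest control. Rfc4 was 1.88-fold lower in intact-mated females (limma adjusted p = 0.0265), with a log2 fold-change of -0.82 ± 0.23 (adjusted p = 0.076) in vasectomized-mated females. Rfc3 passed the adjusted p but not the fold threshold in vasectomized-mated females (1.4-fold lower, adjusted p = 0.0469), and Rfc5 stood at -0.49 and -0.52. Pcna, the clamp itself and a common stain for dividing cells, averaged 10.2 ± 0.38 in intact-mated, 10.2 ± 0.05 in vasectomized-mated and 10.6 ± 0.45 in control arrays (SD, n = 4 each). Its log2 fold-changes of -0.44 and -0.45 were not called (limma adjusted p = 0.247 and 0.276), and its second row gave -0.43 and -0.45. The mouse genome holds Pcna-ps1, Pcna-ps2 and Tyms-ps, processed copies whose transcripts probes may not separate from Pcna and Tyms, so both values carry that uncertainty.

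Of the genes that finish Okazaki fragments, Lig1, the DNA ligase, had log2 fold-changes of -0.46 and -0.55 and Fen1, the flap nuclease, -0.28 and -0.38. Neither was called. Behind the fork, neither subunit read of chromatin assembly factor 1 was called, and the difference between them was not tested. Chaf1a stood at -0.42 and -0.55, and Chaf1b averaged 8.85 ± 0.22 in intact-mated, 8.86 ± 0.05 in vasectomized-mated and 8.92 ± 0.30 in control arrays (SD, n = 4 each). The 95% interval of Chaf1b ran over -0.38 to 0.23 in intact-mated females and over -0.37 to 0.24 in vasectomized-mated females, and the sign of its difference turned when control array 2 or 4 was left out. Uhrf1, which carries DNA methylation over to the new strand, read 6.72, 8.20, 7.06 and 7.01 on intact-mated arrays, 7.13, 6.80, 6.74 and 6.71 on vasectomized-mated arrays, and 6.93, 8.39, 7.48 and 8.32 on controls. Its difference between the mated groups was the largest of the 36, 0.40 higher on the log2 scale in intact-mated females, with a 95% interval of -0.35 to 1.15, and intact-mated array 2 alone was above the vasectomized-mated range.

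The supply of deoxynucleotides held Rrm1, called in both comparisons, which had the largest fold-change and the smallest adjusted p of the 5 genes called in intact-mated females. Rrm1, the large subunit of ribonucleotide reductase, read 8.66, 9.37, 8.63 and 8.58 on intact-mated arrays, 9.11, 8.80, 8.81 and 9.05 on vasectomized-mated arrays, and 9.31, 10.56, 9.65 and 10.59 on controls. Every mated array but intact-mated array 2 lay below the lowest control, and array 2 passed only control array 1. Rrm1 was 2.32-fold lower in intact-mated females (log2 fold-change -1.22 ± 0.27, limma adjusted p = 0.0135) and 2.12-fold lower in vasectomized-mated females (-1.08 ± 0.27, adjusted p = 0.0454). The call in intact-mated females was made under all 20 alternatives that left the thresholds as they were, with adjusted p between 0.00315 and 0.0471. The call in vasectomized-mated females was made under 9 of 20. Rrm2, the small subunit, which is made mainly in S phase, had differences as large (-1.09 and -1.31) with SDs of 0.84, 0.39 and 0.82 in intact-mated, vasectomized-mated and control arrays, and was not called (limma adjusted p = 0.15 and 0.123). Tk1, the thymidine salvage kinase, stood at -0.87 and -0.80, and Tyms, which makes thymidylate, at -0.58 and -0.60.

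At the switch into S phase 1 of the cyclin E genes was called, and the difference between them was not tested. Ccne2 read 6.24, 7.22, 6.21 and 6.0 on intact-mated arrays, 6.55, 6.21, 6.60 and 6.08 on vasectomized-mated arrays, and 7.05, 7.62, 7.25 and 7.60 on controls. Its controls kept closer together than those of most of the 36 genes (SD 0.28), and of the mated arrays only intact-mated array 2 reached them. Ccne2 was 1.95-fold lower in intact-mated females (limma adjusted p = 0.0223) and 2.03-fold lower in vasectomized-mated females (adjusted p = 0.0321). Ccne1 read 7.16, 8.20, 7.15 and 7.29 on intact-mated arrays, 7.49, 7.0, 7.11 and 7.06 on vasectomized-mated arrays, and 7.17, 8.48, 7.25 and 7.95 on controls. Control arrays 1 and 3 sat at the level of the mated arrays, and its log2 fold-changes of -0.26 and -0.55 were not called. E2f1, the transcription factor that drives many of these genes, stood at -0.17 and -0.48, also without a call.

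**Figure D4:**
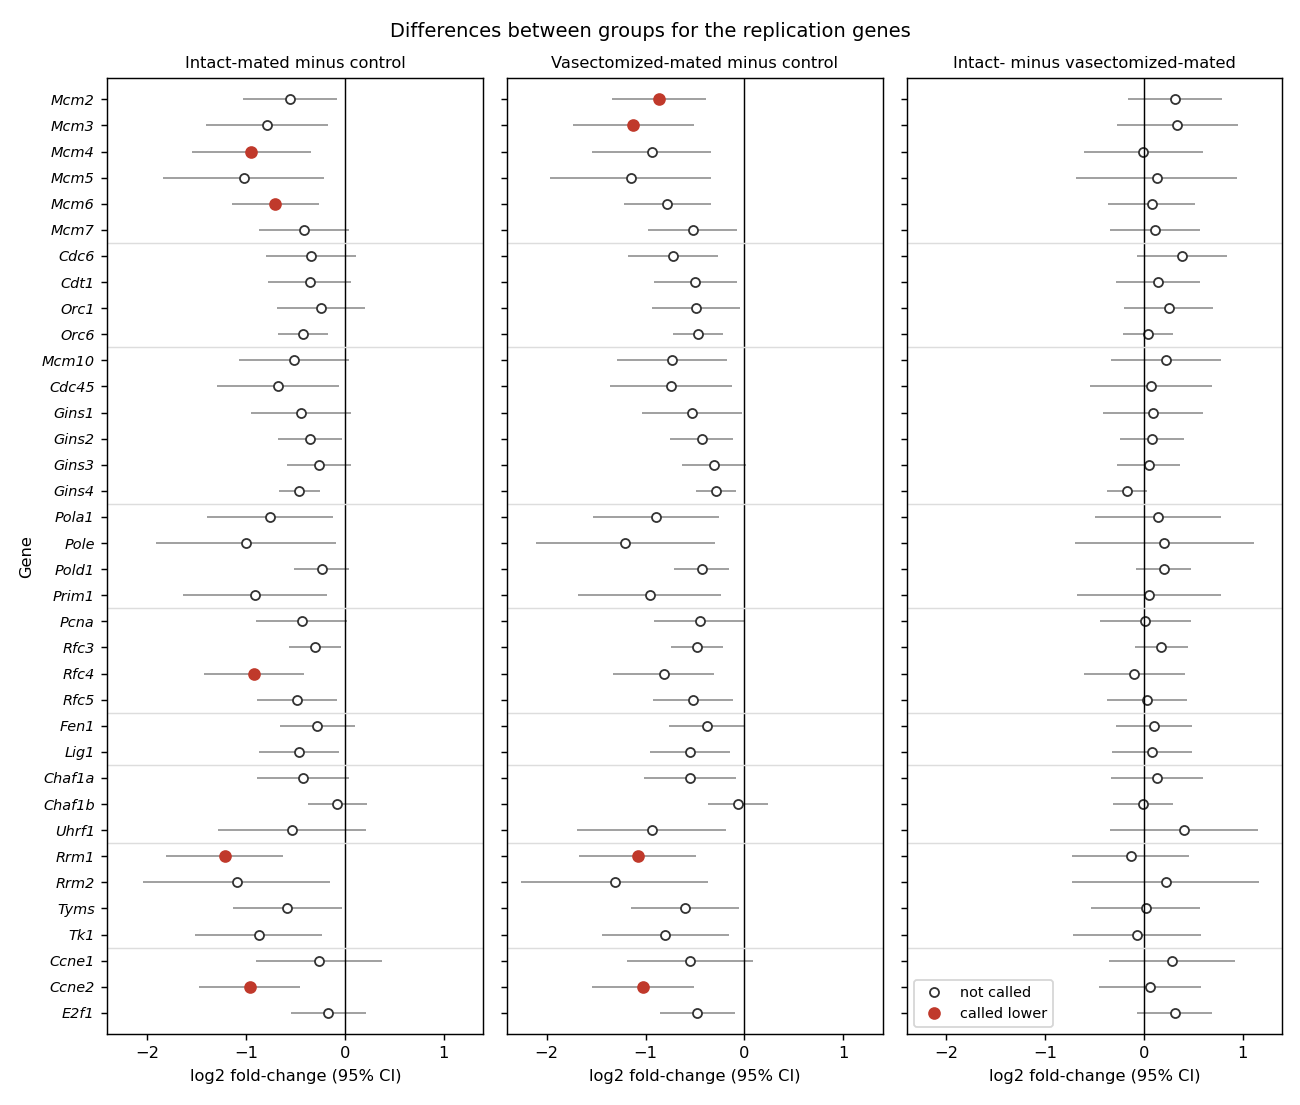
Log2 fold-change of each replication gene with its 95% confidence interval from limma in the 3 comparisons, with filled points for called genes. All 36 points lie left of zero against controls, with 5 called lower in intact-mated females and 4 in vasectomized-mated females, and 0 are called between the mated groups.

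The direct comparison sets matings that delivered sperm against matings that did not. Sperm and the testicular and epididymal fluids are missing together after vasectomy, so their parts cannot be told apart. The median log2 fold-change of intact-mated against vasectomized-mated females was 0.095, with 6 of 36 negative, and the smallest adjusted p was 0.378 (limma). The differences ran over -0.17 for Gins4 to 0.40 for Uhrf1, and the 95% intervals of the 36 genes reached down to -0.73 and up to 1.17, so for the most variable genes these arrays leave room for changes of that size. Without intact-mated array 2 the median was -0.058 and 25 of 36 were negative, again with 0 called, so the sign of this small difference rested on 1 pool.

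The counts against controls also rested on single arrays. In intact-mated females 10 genes were called lower without intact-mated array 2 and 9 without control array 1, and 5 without control array 3. Rrm1 was the single gene called when any of control arrays 2 and 4 or intact-mated arrays 1, 3 and 4 was left out. In vasectomized-mated females 10 were called without control array 1, 5 without control array 3 and 0 when any other array was left out. At an unadjusted limma p of at most 0.05, 21 of 36 genes were lower in intact-mated females, against 11.1% of all rows, and 31 of 36 in vasectomized-mated females, against 7.09% of all rows. None of the 36 was higher at that p.

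Other genes of the same pathways gave few calls, apart from those of mitosis. The counts below stand beside 1.55% of all rows called lower in intact-mated and 0.439% in vasectomized-mated females. Of 36 further replisome and licensing genes, 1 was called lower in intact-mated females, Dbf4 (log2 fold-change -0.77), which activates the kinase that fires origins, and 1 in vasectomized-mated females, Pole2 (-0.82), a subunit of the polymerase of Pole. Ticrr (-1.13) and Prim2 (-0.61) were not called in intact-mated females. Of 16 nucleotide supply genes 1 was called lower in intact-mated females, the nucleoside transporter Slc29a1 (-0.70), with Paics at -0.41, Ctps at 0.40 and Dut at -0.40. Of 27 regulators of the G1 to S step 2 were called lower there, Ccna2 (-2.41), the S phase and mitotic cyclin, and the kinase inhibitor Cdkn2c (-0.94), while E2f8 (-1.08) and E2f7 (-0.60) were not. Of 14 S phase chromatin genes 1 was called lower there, Hat1, which lies outside the rule for naming genes, with Esco2 at -1.40, Asf1b at -1.24, Cdca5 at -0.83 and Atad2 at -0.81. Of 19 checkpoint and repair genes 0 were called in either comparison, with 8 and 11 lower and 1 higher in each at an unadjusted limma p of at most 0.05, where 11.1% and 7.09% of all rows were lower. In intact-mated females Rad54l stood at -0.87, Rad18 at -0.76, Brca1 at -0.71 and Blm at -0.70. At the same unadjusted p, 13 and 19 of the replisome and licensing genes passed, 12 and 19 of them lower. Of the nucleotide supply genes 7 and 6 passed, 4 and 5 of them lower. Of the G1 to S regulators 13 and 11 passed, 10 and 8 of them lower. Of the S phase chromatin genes 10 and 8 passed, 9 and 7 of them lower. None of these lists had a gene called in the vasectomized-mated females other than Pole2, or between the mated groups. With single arrays left out, the calls in any of these lists ran over 0 to 5 against controls in each mated group. The 5 was reached without control array 1. Pole2 was lost without control array 2 or 4 or any vasectomized-mated array. Slc29a1 was lost without control array 1 or 2 or any intact-mated array. Dbf4 was lost without control array 2 or 4 or intact-mated array 3 or 4, and Hat1 without any of those or intact-mated array 1. The 2 calls among G1 to S regulators became 1 without control array 4 or intact-mated array 1, 3 or 4, and 3 without intact-mated array 2.

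Mitosis genes had a lower mean in both mated groups throughout the list, and nearly all were called in intact-mated females. There 20 of 21 were called lower than in controls, among them the kinetochore kinase Bub1 (5.93-fold), the proliferation marker Mki67 (5.52-fold), the spindle protein Nusap1 (log2 fold-change -2.27) and the topoisomerase Top2a (-2.27). The median log2 fold-change of the 21 was -1.78. In vasectomized-mated females 1 of 21 was called, Mad2l1, although all 21 were negative, at least 1.5-fold lower and at an unadjusted limma p of at most 0.05, with a median of -1.21. There 7.09% of all rows were lower at that p. Between the mated groups 0 were called, and 2 of 21 were lower at that p, against 10.2% of all rows. All 21 were negative in intact-mated against vasectomized-mated females, with a median of -0.57, where 50.5% of all rows were negative. With single arrays left out, the count varied over 13 to 21 in intact-mated and over 0 to 20 in vasectomized-mated females, the 20 without control array 1. Mki67 read 6.67, 8.11, 6.51 and 7.0 on intact-mated arrays, 8.24, 7.51, 7.82 and 8.69 on vasectomized-mated arrays, and 8.27, 10.35, 9.02 and 10.50 on controls. The mean deviation of the mitosis genes was -1.03, -0.12, -0.99 and -0.89 on intact-mated arrays, -0.11, -0.61, -0.37 and 0.23 on vasectomized-mated arrays, and -0.08, 1.6, 0.54 and 1.83 on controls. Replication and mitosis genes therefore shared control arrays 2 and 4 as their highest arrays. In both lists intact-mated array 2 stood above the other intact-mated arrays, at 0.41 against -0.39 to -0.29 for replication and at -0.12 against -1.03 to -0.89 for mitosis. Vasectomized-mated array 4 was at -0.28 for replication and 0.23 for mitosis.

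**Figure D5:**
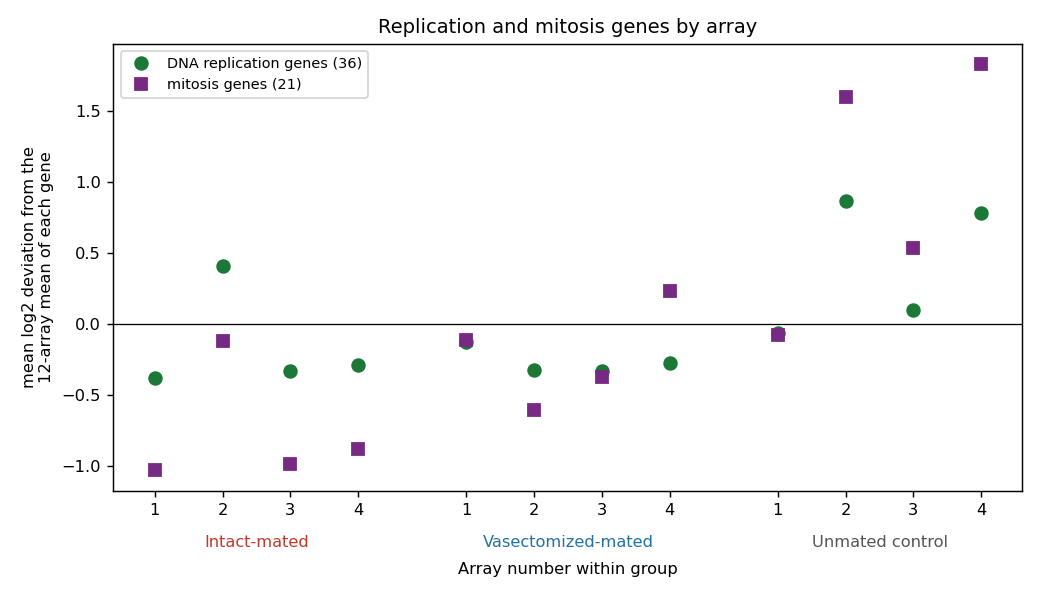
Mean deviation on each array of the 36 replication genes (circles) and the 21 mitosis genes (squares), each gene set against its own mean over the 12 arrays. Control arrays 2 and 4 are highest in both lists, and intact-mated array 2 is the highest intact-mated array in both, at 0.41 for replication and -0.12 for mitosis.

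Regulators of uterine growth under estrogen and progesterone were read for the same arrays. Of 23 such genes 5 were called lower and 3 higher in intact-mated females, where 1.55% of all rows were called lower and 1.95% higher. In vasectomized-mated females 2 of 23 were called lower and 0 higher, against 0.439% and 0.987% of all rows. Greb1, an estrogen receptor target, averaged 8.17 ± 0.19 in intact-mated, 8.93 ± 0.21 in vasectomized-mated and 10.7 ± 0.38 in control arrays (SD, n = 4 each), with no overlap between any groups. It was lower in intact-mated than in vasectomized-mated females as well (log2 fold-change -0.75, limma adjusted p = 0.0428), a call made in the full set of arrays and lost without any intact-mated array or vasectomized-mated array 1, 3 or 4. Pgr, the progesterone receptor, was 3.99-fold lower in intact-mated and 2.54-fold lower in vasectomized-mated females. Igf1, the stromal growth factor of the uterus, was 2.93-fold lower in intact-mated females and not called in vasectomized-mated females (limma adjusted p = 0.0845). Klf5, an epithelial transcription factor, was higher in intact-mated females (0.86, limma adjusted p = 6.7e-06). The mean deviation of the 23 genes was 0.26, 0.27, 0.06 and 0.0002 on control arrays 1 to 4. Among the controls Greb1 was lowest on array 2 and Pgr highest there. How these genes relate to the order of arrays in the replication genes was not tested.

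Markers of other cells were read beside these results. Epithelial markers were abundant, and the summed linear level of the 9 measured, in units of 1000, ran over 49.0 to 50.6 on intact-mated, 47.1 to 50.2 on vasectomized-mated and 48.0 to 53.3 on control arrays, with 0 of 9 called against controls. In each comparison 1 of the 9 was lower and passed the adjusted p (limma, 0.0276 and 0.0104), short of the fold threshold. Stromal markers were called lower in intact-mated females in 2 of 11 (Col1a1 and Lum), where 1.55% of all rows were. In vasectomized-mated females 0 of 11 were called. All 11 had a lower mean than controls in each mated group, with median log2 fold-changes of -0.60 and -0.35. At an unadjusted limma p of at most 0.05, 8 and 2 of 11 were lower, against 11.1% and 7.09% of all rows. The summed stromal levels were 7.58 to 13.3 on intact-mated, 9.92 to 16.2 on vasectomized-mated and 11.4 to 21 on control arrays. These were highest on control arrays 1 and 2, not on 2 and 4. Neutrophil markers were called higher in intact-mated females in 4 of 11 (S100a9, Cxcr2, Csf3r and Clec4d), where 1.95% of all rows were. Against vasectomized-mated females 4 of 11 were called higher, where 0.394% of all rows were. Of the 11 neutrophil markers, 1 and 2 had a lower mean in these comparisons, down to log2 fold-changes of -0.44 and -0.27. Their summed levels were 1.64 to 2.08 on intact-mated, 1.5 to 1.88 on vasectomized-mated and 1.29 to 2.24 on control arrays, and their mean deviations were 0.12, 0.55, 0.29 and 0.49 on intact-mated arrays, where array 2 was again highest, and between -0.27 and -0.03 on all others. Macrophage markers had 0 of 8 called, but their summed level was 8.85 to 10.9 on intact-mated and 9.77 to 10.2 on vasectomized-mated arrays, all above the 6.93 to 8.57 of control arrays. Such a sum weighs the brightest markers most. Their mean deviations overlapped between groups, with means of -0.021 in intact-mated, 0.046 in vasectomized-mated and -0.025 in control arrays. In each comparison with controls 3 of 8 markers had a lower mean, down to log2 fold-changes of -0.50 and -0.27. Cd68, named for having the smallest adjusted p of the 8, was higher by 0.45 and 0.46 on the log2 scale (limma adjusted p = 0.00631 and 0.0125), short of the fold threshold. T and NK cell, B and plasma cell, endothelial, smooth muscle and sperm markers had 0 genes called against controls. The part of stromal, neutrophil and macrophage RNA in the replication results was not tested.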

How the data were processed

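Endometrial RNA (300 ng per array) of 12 pools was labelled and hybridised to Affymetrix Mouse Gene 1.0 ST arrays. Per the labels and the methods, the authors processed the scans with Partek and RMA, correcting for probe GC content and averaging the probes of a row, and the deposited values are log2 levels of 35556 rows. Tool versions: not given in the sources used here. These values were used as deposited, without a filter, and the per-array columns not used numbered 0. Gene symbols came from the platform annotation, in which 21789 rows had 1 symbol, 1621 several and 12146 none, and all 36 symbols were found in the RefSeq gene table. Genes were grouped by the sample labels.

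limma 3.58.1 (R 4.3.3) estimated a mean for each of the 3 groups in every row from the 12 arrays together. Variances were moderated by eBayes with its default settings, which gave 3.26 prior beside 9 residual degrees of freedom. P-values were two-sided and Benjamini-Hochberg adjusted over all rows. The methods name ANOVA, which was run as an alternative. The replication genes and the other lists were chosen with earlier results of these data known. All 36 genes were named, and from each pathway list up to 4 genes with the largest absolute log2 fold-change in intact-mated females against controls and any gene called between the mated groups. Genes called in the text outside this rule (Hat1, Mad2l1 and the cell markers) were named after their values were seen. The code was tested on simulated data. The number of arrays limits the precision. Alternatives were quantile normalization, median centring, trend and robust moderation, no moderation, a replicate block, array weights, a fit of 2 groups, removal of dim rows, correction over annotated rows, other fold thresholds, the mean of all rows of a gene, control arrays 1 and 2 or 3 and 4 only, and leaving out each array. Leaving out arrays for the pathway lists was added after the data were seen.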

Additional observations from a re-analysis of the deposited data

Results flagged for a closer look

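Of 111 sets of 4 arrays examined (36 genes and their mean, in 3 groups), 12 held 1 array whose gap to the nearest other, as a share of the whole range, exceeded Dixon's 95% critical value. Chance gives about 1 in 20, and the sets share arrays, so that the 12 are not separate events. In 10 of the 12 the array was intact-mated array 2, which was high. It read 9.21 for Mcm6 (other intact-mated arrays 8.57 to 8.68), 9.82 for Mcm7 (9.01 to 9.03), 6.57 for Orc1 (5.78 to 5.91), 9.37 for Rrm1 (8.58 to 8.66), 7.94 for Rfc4 (7.20 to 7.32), 7.75 for Chaf1a (7.01 to 7.11), 8.79 for Tyms (8.25 to 8.33), 8.64 for Tk1 (7.67 to 7.81) and 8.20 for Ccne1 (7.15 to 7.29). Its mean deviation over the 36 genes was 0.408, while the other intact-mated arrays lay between -0.386 and -0.287. The remaining cases were Gins3, low at 6.67 on intact-mated array 4 (others 6.86 to 6.89), and Orc1, high at 5.97 on vasectomized-mated array 2 (others 5.68 to 5.71).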

How the results depend on the processing

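Every replication gene tested kept a negative difference from controls under each alternative but the loss of control array 2 or 4, where 35 of 36 did. Leaving out single arrays gave 1 to 10 genes called lower in intact-mated and 0 to 10 in vasectomized-mated females. The log2 fold-change of Chaf1b then ran over -0.178 to 0.0214 in intact-mated and over -0.158 to 0.0328 in vasectomized-mated females. In intact-mated females the 5 calls became 3 with median centring, 2 with array weights, 1 without variance moderation, 1 in a fit of only these 2 groups, 1 at a fold-change of at least 2, 1 with control arrays 1 and 2 only and 3 with control arrays 3 and 4 only. In vasectomized-mated females the 4 calls became 0 without moderation, 0 with array weights, 1 in a fit of only these 2 groups and 0 with control arrays 1 and 2 only. Fewer arrays or degrees of freedom entered the fits without moderation, of 2 groups or of 2 controls. The cause of the changed counts was not tested for any setting. Between the mated groups 0 were called under each alternative.

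The labels link arrays of 1 replicate number by that number alone, and whether such arrays were handled together is not given. Correlations of their deviations lay between -0.255 and 0.205, the highest between intact-mated array 2 and control array 2. With a replicate block the counts were 5 and 3. The 3 were Mcm2, Mcm3 and Mcm6, so that Rrm1 and Ccne2 lost their call in vasectomized-mated females and Mcm6 gained one. Of the genes called in intact-mated females, Mcm6 and Mcm4 lay nearest the threshold, at adjusted p = 0.0456 and 0.0492 (limma).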
